A study of Mus musculus with 8 samples.

Results

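The chemokines Ccl17, Ccl19, Ccl20 and Ccl22 and the chemokine receptors Ccr4, Ccr6, Ccr7 and Ccr8 carry signals that bring dendritic cells and T cells to one another. These 8 genes were taken as a named set out of the 55416 gene identifiers in the count table of a mouse lung RNA-seq series. A filter on low counts left 18560 genes for testing, among them 7 of the 8 members, and Ccr4 did not pass it. Ccr8 passed only through the LPS group, where its counts were high, and Ccr6 only through the control group, so the number of members that passed is not used as support for anything.

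The series measured RNA from the lung of C57BL/6 mice in 3 groups, which the labels call control (3 mice), LPS (3 mice) and LPS with the PAD4 inhibitor YW3-56 (2 mice, written here as LPS+YW3-56). The study's methods describe female C57BL/6J mice aged 6 to 8 weeks and count 3 mice in each group, while the labels and a figure legend of the study hold 2 for LPS+YW3-56. LPS, a bacterial endotoxin, was given at 35 mg/kg in saline, with the peritoneal cavity named by the study as its site, and YW3-56 was injected at 10 mg/kg in DMSO shortly before it, by a route that the methods do not state; lungs were taken 24 hours later, from one side of each mouse. In the study's survival experiment the median survival after LPS alone was shorter than 24 hours, and with YW3-56 before LPS it was longer. Whether the sampled groups differed through survival was not tested. Control mice received DMSO by the tail vein and saline intraperitoneally. For the LPS group the methods mention no DMSO, so vehicle and compound cannot be told apart between the LPS and LPS+YW3-56 groups. For the same reason, vehicle and endotoxin cannot be told apart between the control and LPS groups.

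Chemokines are small secreted proteins that steer cells bearing the matching receptor. Dendritic cells that have taken up antigen raise CCR7 and follow its ligands CCL19 and CCL21 into lymphatic vessels and lymph nodes, where naive T cells use the same receptor. CCL17 and CCL22 draw CCR4-bearing T cells, regulatory and type 2 helper cells among them; CCL20, made largely by epithelium, draws CCR6-bearing dendritic cells, B cells and type 17 T cells; and CCR8, which binds CCL1 and in mice also CCL8, marks subsets of regulatory and type 2 T cells.

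Total counts per library were 19061949, 19796242 and 20527836 in control mice 1, 2 and 4. They were 20818501, 19379911 and 19279724 in LPS mice 1, 6 and 7, and 19875939 and 20908608 in LPS+YW3-56 mice 2 and 5. The libraries were therefore of similar depth. Levels are given in CPM, which are read counts relative to a library size scaled by the trimmed mean of M values (TMM), whose factors were 1.07, 1.08 and 1.06 in the control mice, 0.810, 0.894 and 0.930 in the LPS mice and 1.11 and 1.09 in the LPS+YW3-56 mice. The most abundant lung epithelial transcript, Scgb1a1 of club cells, stood between 22675 and 65313 CPM in all 8 libraries, and the surfactant gene Sftpc averaged 22773 CPM in control, 11980 in LPS and 13209 in LPS+YW3-56 lungs.

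LPS mice 6 and 7 stood apart from the other libraries in genes of squamous epithelium and skeletal muscle. The 14 squamous genes found summed to 12.4, 16.5 and 16.7 CPM in the control mice. Their sums were 1.72, 770 and 2149 CPM in LPS mice 1, 6 and 7. In LPS+YW3-56 mice 2 and 5 they were 13.5 and 25.99 CPM. The keratin gene Krt13 had the largest mean over all 8 mice through LPS mice 6 and 7, at 286 and 887 CPM. It averaged 0.190 CPM in control and 0.711 CPM in LPS+YW3-56 mice. Skeletal muscle genes, 11 in all, summed to 10.5, 19.8 and 14.7 CPM in control and to 17.5, 501 and 1288 CPM in LPS mice. In LPS+YW3-56 mice they summed to 5.76 and 8.03 CPM. The actin gene Acta1 had the largest mean of these through LPS mice 6 and 7, at 210 and 600 CPM. It averaged 0.339 CPM in control and 0.135 CPM in LPS+YW3-56 mice. Mice 6 and 7 lay far above every other library on both sums, while LPS mouse 1 lay within the control range for muscle and below every other library for squamous genes. Where these transcripts came from was not tested. Calls, within-library ratios and nearest courses that rest on the LPS group, and the fitted fold changes of members, were also taken without mice 6 and 7; folds from pooled counts were not. Leaving both out leaves 1 LPS library, so that the spread comes from the other groups.

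Each gene was tested in edgeR across all 8 mice, and was called when its p-value, adjusted by the Benjamini-Hochberg method over the 18560 genes, was under 0.05 and its fold change over 2. The 3 comparisons share samples and are not independent of each other. In bulk lung, fewer cells of a type and less RNA per cell cannot be told apart, and this holds for every gene given here. Ccl17, Ccl19, Ccl20, Ccl22 and Ccr7 reached the cutoff of the filter in at least 2 libraries outside the LPS group, and their calls are set beside the share of all tested genes called. LPS against control asks what differs from control lungs once the endotoxin is given, with vehicle not separated from it. These 5 members rose, where 17.9% of all tested genes were called higher and 21.3% lower. LPS+YW3-56 against LPS asks what differs in endotoxin-treated lungs once YW3-56 is also given, with its vehicle not separated from it. The same 5 members were lower there, against 14% of all tested genes, and 0 were higher, against 19.8%. LPS+YW3-56 against control asks what differs from lungs of vehicle-injected mice once both agents are given. Ccl20 was higher, against 5.25% of all tested genes, and Ccl17 was lower, against 1.9%. Ccr8 was also called higher in LPS against control and lower in LPS+YW3-56 against LPS, which makes 6 members, and Ccr6 was called lower in LPS against control. Both entered the test through the group in which they were high, so their calls are not counted against these shares. Over all tested genes the median log2 fold change was -0.01 for LPS against control, 0.06 for LPS+YW3-56 against LPS and 0.0042 for LPS+YW3-56 against control.

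**Figure D1:**
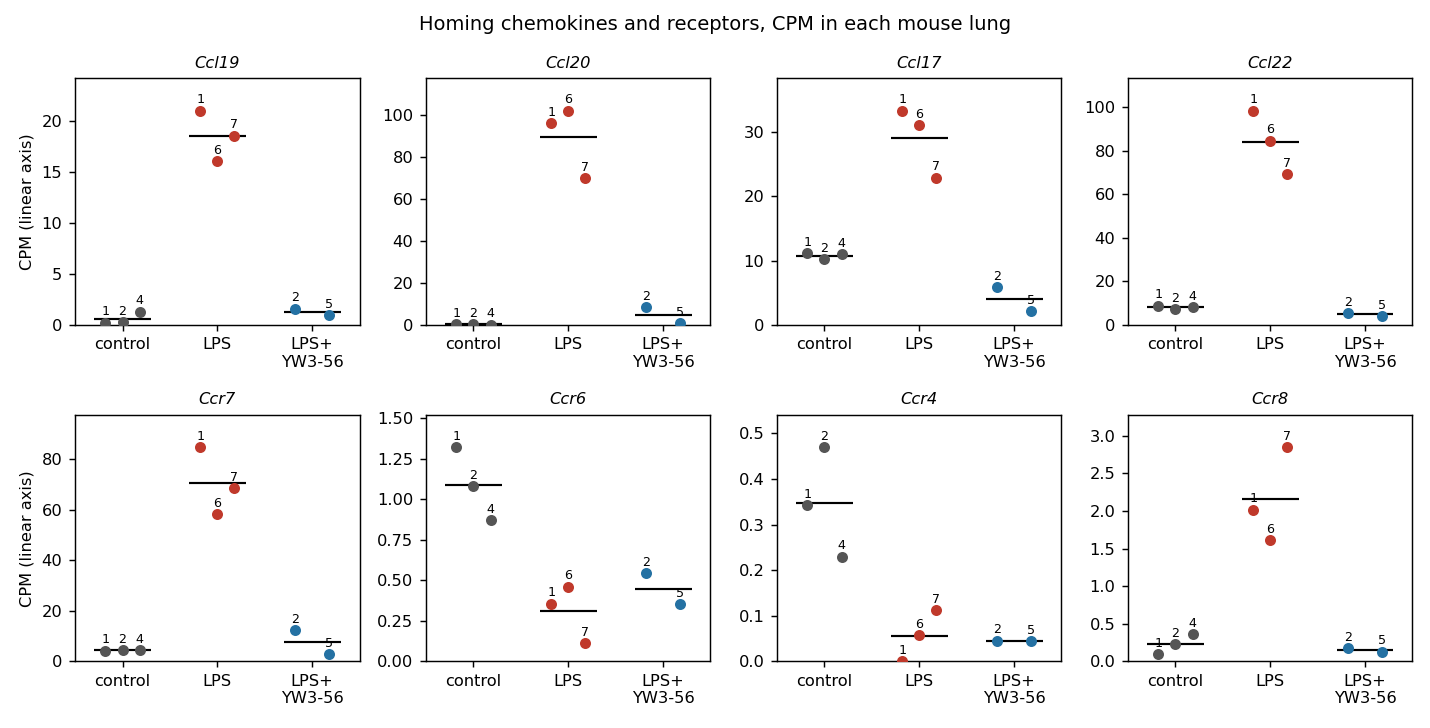
Level of each member in CPM on a linear axis from 0, with a numbered point for every control, LPS and LPS+YW3-56 mouse and a line at the group mean. Ccl20 ran from 0.0920 CPM in control mouse 4 to 102 CPM in LPS mouse 6.

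Ccl22 (ENSMUSG00000031779, chromosome 8, 95471226 to 95478327, positions on GRCm39 here and for all genes) encodes a CCR4 ligand made mainly by dendritic cells and macrophages. Its level was 8.76, 7.09 and 8.001 CPM in control mice 1, 2 and 4, 98.5, 84.7 and 69.3 CPM in LPS mice 1, 6 and 7, and 5.45 and 4.13 CPM in LPS+YW3-56 mice 2 and 5. Every LPS mouse lay far above every control mouse, both LPS+YW3-56 mice lay below all controls, and no groups overlapped. The gene rose by a log2 fold change of 3.40 ± 0.17 (SE, 3 against 3 mice) in LPS against control, with an edgeR Benjamini-Hochberg adjusted p of 6.2e-07. For LPS+YW3-56 against LPS its log2 fold change was -4.13 ± 0.21 (2 against 3 mice; edgeR Benjamini-Hochberg adjusted p = 2.38e-06). Set against control, LPS+YW3-56 lungs differed by -0.73 ± 0.19 in log2, a fold of 1.66 that did not reach the fold criterion (edgeR Benjamini-Hochberg adjusted p = 0.0321).

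Ccl17 (ENSMUSG00000031780, chromosome 8, 95534358 to 95538664) lies close to Ccl22 on the same strand and encodes the other CCR4 ligand. It stood at 11.1, 10.2 and 11.04 CPM in the control mice, at 33.4, 31.1 and 22.9 CPM in LPS mice 1, 6 and 7, and at 5.85 and 2.06 CPM in LPS+YW3-56 mice 2 and 5. The order of the groups was that of Ccl22, again with no overlap, but the step from control to LPS was smaller and LPS+YW3-56 mouse 5 was lower than mouse 2. Its log2 fold change was 1.43 ± 0.29 in LPS against control (edgeR Benjamini-Hochberg adjusted p = 0.00193). It fell in LPS+YW3-56 against LPS, at -2.88 ± 0.37 in log2 (edgeR Benjamini-Hochberg adjusted p = 0.000163), and this was -3.84 without LPS+YW3-56 mouse 2. Against control it fell, at -1.45 ± 0.36 in log2 (edgeR Benjamini-Hochberg adjusted p = 0.0239). That last call depended on single mice: the edgeR Benjamini-Hochberg adjusted p was 0.0634, 0.0574 or 0.0627 without control mouse 1, 2 or 4, and the log2 fold change was -0.91, under the fold criterion, without LPS+YW3-56 mouse 5 and -2.41 without mouse 2.

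The balance of the neighbours was compared within each library. The ratio of Ccl22 to Ccl17 counts, which does not depend on the scaling of a library, was 0.789, 0.693 and 0.726 in control mice 1, 2 and 4, 2.95, 2.72 and 3.02 in LPS mice 1, 6 and 7, and 0.931 and 1.99 in LPS+YW3-56 mice 2 and 5. Both LPS+YW3-56 mice lay between the other groups, mouse 2 near the controls and mouse 5 nearer the LPS mice. The log2 ratio differed by 1.98 in LPS against control, with a two-sided exact permutation p of 0.1, the smallest that 3 against 3 or 3 against 2 mice allow. It differed by -1.09 in LPS+YW3-56 against LPS and by 0.89 in LPS+YW3-56 against control, each again at an exact p of 0.1, and Benjamini-Hochberg adjustment over the 3 exact tests left 0.1. None of these differences passed 0.05. Without LPS+YW3-56 mouse 2 the differences in LPS+YW3-56 against LPS and against control were -0.54 and 1.44, and without mouse 5 they were -1.64 and 0.34. Without LPS mice 6 and 7 the log2 ratio differed by 2.00 in LPS against control and by -1.11 in LPS+YW3-56 against LPS.

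Ccl20 (ENSMUSG00000026166, chromosome 1, 83094487 to 83096888) encodes the chemokine ligand of CCR6. Counts were 3, 7 and 2 in the control mice, 1619, 1769 and 1250 in LPS mice 1, 6 and 7, and 182 and 15 in LPS+YW3-56 mice 2 and 5. In CPM these were 0.147, 0.329 and 0.0920, then 96.1, 102 and 69.8, then 8.26 and 0.659. The gene was close to absent in control lungs and high in each LPS lung; LPS+YW3-56 mouse 2 lay well above mouse 5, and both lay above all controls and below all LPS mice. Of the members it had the largest fold change in LPS against control, a log2 value of 8.84 ± 0.85 (edgeR Benjamini-Hochberg adjusted p = 1.62e-05), which was 9.48 without control mouse 2. It fell in LPS+YW3-56 against LPS with a log2 fold change of -4.33 ± 0.70 (edgeR Benjamini-Hochberg adjusted p = 0.000598), and it was -7.10 without LPS+YW3-56 mouse 2 and -3.46 without mouse 5. Against control the LPS+YW3-56 lungs were higher by 4.51 ± 1.02 in log2 (edgeR Benjamini-Hochberg adjusted p = 0.0166). This call was lost without control mouse 1 (4.37), control mouse 4 (4.15) or LPS+YW3-56 mouse 2 (1.74); the value was 5.15 without control mouse 2 and 5.37 without LPS+YW3-56 mouse 5, still called.

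Ccl19 (ENSMUSG00000071005, chromosome 4, 42754525 to 42756577) encodes a CCR7 ligand made by stromal cells and mature dendritic cells. Its counts were 4, 6 and 28 in control mice 1, 2 and 4, 355, 279 and 333 in LPS mice 1, 6 and 7, and 35 and 21 in LPS+YW3-56 mice 2 and 5. As CPM this was 0.196, 0.282 and 1.29, then 21.1, 16.1 and 18.6, then 1.59 and 0.922. The LPS mice stood together above all others, control mouse 4 stood above the other controls, and the control and LPS+YW3-56 groups overlapped. It rose in LPS against control by 4.95 ± 0.53 in log2 (edgeR Benjamini-Hochberg adjusted p = 2.94e-05), or 6.24 without control mouse 4. It fell in LPS+YW3-56 against LPS, at -3.88 ± 0.57 (edgeR Benjamini-Hochberg adjusted p = 0.000351). Against control the difference of 1.07 ± 0.61 was not called (edgeR Benjamini-Hochberg adjusted p = 0.272), but without control mouse 4 it was 2.33 and called (edgeR Benjamini-Hochberg adjusted p = 0.0123).

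A limit applies to the counts of Ccl19. The count table holds 5 unprocessed Ccl19 pseudogenes on chromosome 4, of which Ccl19-ps3 (324 bases) and Ccl19-ps4 (322 bases) match a stretch of the Ccl19 transcript with 0 edits, Ccl19-ps5 with 2, Ccl19-ps6 with 3 and Ccl19-ps1 with 4. Ccl19-ps2, annotated as a long noncoding gene, is not in the count table and so not in the sum below. How reads that fit several places were counted is not given in the sources used here. Ccl19-ps3 held 24, 22 and 0 counts in the control mice, 14, 621 and 619 in LPS mice 1, 6 and 7, and 58 and 2 in LPS+YW3-56 mice 2 and 5, so mice of one group differed widely in it. Ccl19 itself made up 5.63%, 13.6% and 35.4% of the counts of gene and pseudogenes together in control mice 1, 2 and 4, 54.6%, 27.5% and 29.7% in LPS mice 1, 6 and 7, and 32.1% and 30.9% in LPS+YW3-56 mice 2 and 5. Summed over gene and pseudogenes, a sum chosen after the values were seen, the level was 3.47, 2.06 and 3.63 CPM in control, 38.6, 58.7 and 62.6 CPM in LPS, and 4.95 and 2.99 CPM in LPS+YW3-56 mice. Control mouse 4, which stood above the other controls in Ccl19 alone, lay close to mouse 1 on the sum, and without it the sum in LPS+YW3-56 against control differed by 0.49 in log2 and was not called (edgeR Benjamini-Hochberg adjusted p = 0.466). On that sum the log2 fold changes were 4.12, -3.75 and 0.37 in the 3 comparisons, in the order given above, with the same calls, and 3.66, -3.29 and 0.37 without LPS mice 6 and 7, again with the same calls. Ccl19 also overlaps the long noncoding gene 4930578G10Rik on the other strand, which held at most 23 counts in a library.

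Ccr7 (ENSMUSG00000037944, chromosome 11, 99035022 to 99045911) encodes the receptor for CCL19 and CCL21. It stood at 4.26, 4.46 and 4.55 CPM in the control mice, at 84.7, 58.3 and 68.4 CPM in LPS mice 1, 6 and 7, and at 12.3 and 3.03 CPM in LPS+YW3-56 mice 2 and 5. The controls were tightly grouped, all LPS mice were far above them, and the LPS+YW3-56 mice lay on either side of the controls. In LPS against control it rose by 3.99 ± 0.41 in log2 (edgeR Benjamini-Hochberg adjusted p = 2.47e-05). Ccr7 was lower in LPS+YW3-56 than in LPS, with a log2 fold change of -3.20 ± 0.46 (edgeR Benjamini-Hochberg adjusted p = 0.000308) that was -4.56 without LPS+YW3-56 mouse 2 and -2.54 without mouse 5. For LPS+YW3-56 against control the log2 difference was 0.79 ± 0.44 (edgeR Benjamini-Hochberg adjusted p = 0.265), not called. It turned to -0.58 without LPS+YW3-56 mouse 2, and became 1.44 and called without mouse 5 (edgeR Benjamini-Hochberg adjusted p = 0.00144).

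Ccr8 (ENSMUSG00000042262, chromosome 9, 119921180 to 119924263) was a low transcript, with 2, 5 and 8 counts in the control mice, 34, 28 and 51 in LPS mice 1, 6 and 7, and 4 and 3 in LPS+YW3-56 mice 2 and 5. These were 0.0979, 0.235 and 0.368 CPM, then 2.02, 1.62 and 2.85, then 0.182 and 0.132. All LPS mice lay above all others, and the control and LPS+YW3-56 ranges overlapped. Its log2 fold change was 3.17 ± 0.50 in LPS against control (edgeR Benjamini-Hochberg adjusted p = 0.000376) and -3.74 ± 0.62 in LPS+YW3-56 against LPS (edgeR Benjamini-Hochberg adjusted p = 0.000687). LPS+YW3-56 against control gave -0.57 ± 0.68, not called (edgeR Benjamini-Hochberg adjusted p = 0.623).

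Ccr6 (ENSMUSG00000040899, chromosome 17, 8454869 to 8475973), the receptor for CCL20, went the other way from its ligand. Counts were 27, 23 and 19 in the control mice, 6, 8 and 2 in LPS mice 1, 6 and 7, and 12 and 8 in LPS+YW3-56 mice 2 and 5, or 1.32, 1.08 and 0.874 CPM, then 0.356, 0.462 and 0.112, then 0.545 and 0.351. Every control mouse lay above every treated mouse, and the LPS and LPS+YW3-56 ranges overlapped. The gene fell in LPS against control, at -1.80 ± 0.53 in log2 (edgeR Benjamini-Hochberg adjusted p = 0.0127). Neither LPS+YW3-56 against LPS, at 0.53 ± 0.61 (edgeR Benjamini-Hochberg adjusted p = 0.477), nor LPS+YW3-56 against control, at -1.27 ± 0.56 (edgeR Benjamini-Hochberg adjusted p = 0.158), was called.

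Ccr4 (ENSMUSG00000047898, chromosome 9, 114319384 to 114333984), the receptor for CCL17 and CCL22, had 7, 10 and 5 counts in the control mice, 0, 1 and 2 in LPS mice 1, 6 and 7, and 1 in each LPS+YW3-56 mouse. The transcript of the shared receptor was thus at the floor in treated lungs, also where both ligands were high. Pooled over each group's mice and library sizes, control lay 6.02-fold above LPS (95% counting interval 1.81 to 31.4) and 7.76-fold above LPS+YW3-56 (1.91 to 68.1), while LPS lay 1.29-fold above LPS+YW3-56 (0.148 to 15.5). Such intervals cover counting error only. In a fit with no filter on low counts its log2 fold change was -2.501 ± 1.09 in LPS against control and not called (edgeR Benjamini-Hochberg adjusted p = 0.0688). Of 15 alternatives to that fit 13 did not call it, and library-size scaling (edgeR Benjamini-Hochberg adjusted p = 0.0437) and a rule on unadjusted p did, as lower. With the filter, Ccr4 was tested there only where 1 group was down to 1 mouse. It then entered through control, where it was high, so its lower calls in those settings are not used as support. Its log2 fold change in LPS against control was -2.47 without LPS+YW3-56 mouse 2 and -2.47 without mouse 5.

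Fold changes of the 6 members that rose in LPS were also taken without LPS mice 6 and 7, which leaves 1 LPS library. In LPS against control the log2 values were 1.64 for Ccl17, 5.14 for Ccl19, 8.95 for Ccl20 and 3.64 for Ccl22. They were 4.26 for Ccr7 and 3.08 for Ccr8, which entered the test through the LPS group. Ccr6 was no longer called (log2 fold change -1.59, edgeR Benjamini-Hochberg adjusted p = 0.0820). Ccr4 was tested in that setting because it entered through control, where it was high. Its fitted log2 fold change of -5.88 is set against 0 counts in LPS mouse 1 and is not used as support. The 6 members that rose in LPS were lower in both LPS+YW3-56 mice than in LPS mouse 1. In LPS mouse 1 the levels of all 6 lay within or above the range of mice 6 and 7.

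**Figure D2:**
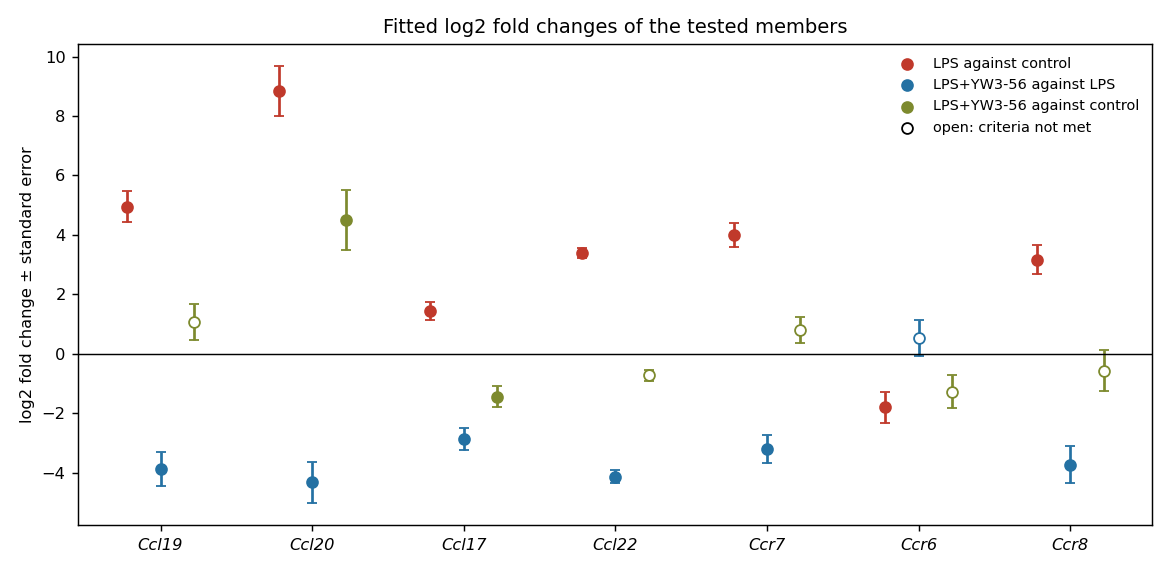
Log2 fold change of each tested member in the 3 comparisons, with bars of 1 standard error, filled points where a gene was called and open points where it was not. In LPS against control the values run from -1.80 for Ccr6 to 8.84 for Ccl20.

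Levels of different members were compared as CPM per kilobase of exon. In control lungs Ccl17 was the highest at 16.3 ± 0.733 (SD, n = 3), followed by Ccl22 at 3.25 ± 0.343 and Ccr7 at 2.23 ± 0.0759, and none of these 3 overlapped the next. Ccl19, at 0.678 ± 0.700, overlapped Ccr6, and Ccr8, Ccl20 and Ccr4, at 0.159, 0.133 and 0.112, overlapped in turn. In LPS lungs Ccl20 led at 62.9 ± 12.1 (n = 3), and it overlapped Ccl17 at 43.9 ± 8.28. Ccr7 at 35.5 ± 6.69 and Ccl22 at 34.4 ± 5.98 overlapped each other, and Ccr7 overlapped Ccl17. Ccl19 at 21.4 ± 2.85 and Ccr8 at 1.47 ± 0.428 each stood apart from the next. The Ccl19 levels leave out the counts of its pseudogenes, so its place in the order of each group is uncertain. LPS+YW3-56 lungs had Ccl17 first again, at 5.96 ± 4.04 (n = 2), but its range overlapped Ccr7 at 3.86 ± 3.30, and each of Ccr7, Ccl20 and Ccl22 overlapped the next below it. Ccr4 was the lowest member in all 3 groups. In LPS mouse 1 alone the order was that of the LPS means.

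Of 10 genes listed as other ligands, copies and scavenging receptors of the same axes 9 were found and 4 passed the filter, and in LPS against control Ccl8 rose while Ccl21a and Ackr4 fell, with a median log2 fold change of -0.63 beside -0.01 for all genes. Ccl21a (ENSMUSG00000094686, chromosome 4, 42772859 to 42773995), the other CCR7 ligand, stood at 37.5, 41.7 and 41.2 CPM in control, 13.1, 9.93 and 13.2 CPM in LPS, and 5.45 and 16.9 CPM in LPS+YW3-56 mice. Treated lungs were all below control and overlapped each other, so where Ccl19 rose in LPS, counts of Ccl21a fell. Its log2 fold change was -1.73 ± 0.32 in LPS against control (edgeR Benjamini-Hochberg adjusted p = 0.00109) and -1.85 ± 0.37 in LPS+YW3-56 against control (edgeR Benjamini-Hochberg adjusted p = 0.0104). Between LPS+YW3-56 and LPS it was -0.11 ± 0.36, not called (edgeR Benjamini-Hochberg adjusted p = 0.803).

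Ackr4, a scavenger of CCL19, CCL20 and CCL21, was at 3.77, 5.40 and 4.23 CPM in control, 0.771, 0.982 and 0.949 CPM in LPS, and 0.771 and 2.37 CPM in LPS+YW3-56 mice. It fell in LPS, at -2.30 ± 0.41 in log2 (edgeR Benjamini-Hochberg adjusted p = 0.000778), and in LPS+YW3-56 against control, at -1.50 ± 0.44 (edgeR Benjamini-Hochberg adjusted p = 0.0457). Ccl8, a ligand of CCR8 in mice, was at 0.979, 0.516 and 0.506 CPM in control, 2.37, 2.43 and 1.51 CPM in LPS, and 3.22 and 2.28 CPM in LPS+YW3-56 mice. All treated mice lay above all controls, and the treated groups overlapped. Its log2 fold change was 1.65 ± 0.38 in LPS (edgeR Benjamini-Hochberg adjusted p = 0.00378) and 2.04 ± 0.40 in LPS+YW3-56 (edgeR Benjamini-Hochberg adjusted p = 0.00959), both against control. Ackr2, a scavenger that takes up CCL17 and CCL22 among others, averaged 34.3, 47.3 and 37.3 CPM in control, LPS and LPS+YW3-56 lungs and was called in none of the 3 comparisons. Between LPS+YW3-56 and LPS 0 partners were called (median 0.14 beside 0.06 for all genes), and against control Ccl8 was higher and Ccl21a and Ackr4 lower (median -0.69 beside 0.0042). Ccl21b, Ccl21d, Ccl21e, Ccl21f and Ccl1 had 5 counts or fewer in each group and were not tested, and Ccl21c was not found. The Ccl21 copies were not compared in sequence. How reads that fit several of them were counted is not given, so Ccl21a need not stand for all of them. Without LPS mice 6 and 7 the log2 fold change of Ackr4 in LPS+YW3-56 against control was again -1.50, but it was not called (edgeR Benjamini-Hochberg adjusted p = 0.0575).

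T cell genes were set beside the receptors, since bulk receptor levels include the number of cells that carry them. Dendritic cells and B cells also carry some of these receptors, so a ratio to T cell genes does not correct for the number of all carrying cells. The 20 T cell genes, led by Tcf7, a transcription factor of naive T cells, summed to 88.0, 81.9 and 76.5 CPM in control, 90.5, 68.2 and 58.9 CPM in LPS, and 47.2 and 52.6 CPM in LPS+YW3-56 mice. The control and LPS sums overlapped and both LPS+YW3-56 sums lay below all others. Relative to that sum Ccr7 was 0.0486, 0.0547 and 0.0598 in control, 0.935, 0.856 and 1.16 in LPS, and 0.261 and 0.0580 in LPS+YW3-56 mice. Here too all LPS mice exceeded all others, and LPS+YW3-56 mouse 5 lay within the control range. The log2 ratio differed by 4.17 in LPS against control and by -2.99 in LPS+YW3-56 against LPS, each at a two-sided exact permutation p of 0.1, and by 1.18 in LPS+YW3-56 against control (exact p = 0.2). For LPS+YW3-56 against LPS it was -4.07 without LPS+YW3-56 mouse 2 and -1.90 without mouse 5, and against control it was 0.10 without mouse 2 and 2.27 without mouse 5. Ccr8 relative to T cell genes differed by 3.41, -3.07 and 0.34 in log2 in the 3 comparisons (exact p = 0.1, 0.1 and 0.9), and the last was -0.17 without control mouse 1, 0.77 without control mouse 4, 0.05 without LPS+YW3-56 mouse 2 and 0.62 without mouse 5. Ccr6 differed by -1.68, 1.147 and -0.54 (exact p = 0.1, 0.3 and 0.2). For Ccr6 LPS+YW3-56 against LPS was 0.74 without LPS mouse 7 and 0.77 without LPS+YW3-56 mouse 2, and LPS+YW3-56 against control was -0.92 without LPS+YW3-56 mouse 2 and -0.16 without mouse 5. Ccr4, from few counts, differed by -2.13, 0.43 and -1.70 (exact p = 0.1, 0.9 and 0.1). Without LPS mouse 1 these Ccr4 ratios were -1.33 in LPS against control and -0.37 in LPS+YW3-56 against LPS, and without LPS mouse 7 they were -2.76 and 1.06. Without LPS mice 6 and 7 the LPS against control and LPS+YW3-56 against LPS values were 4.11 and -2.93 for Ccr7, 3.00 and -2.67 for Ccr8, -1.65 and 1.12 for Ccr6, and -3.73 and 2.04 for Ccr4. Adjusted over the 12 exact tests, the smallest p was 0.171, so 0 of the 12 passed 0.05.

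**Figure D3:**
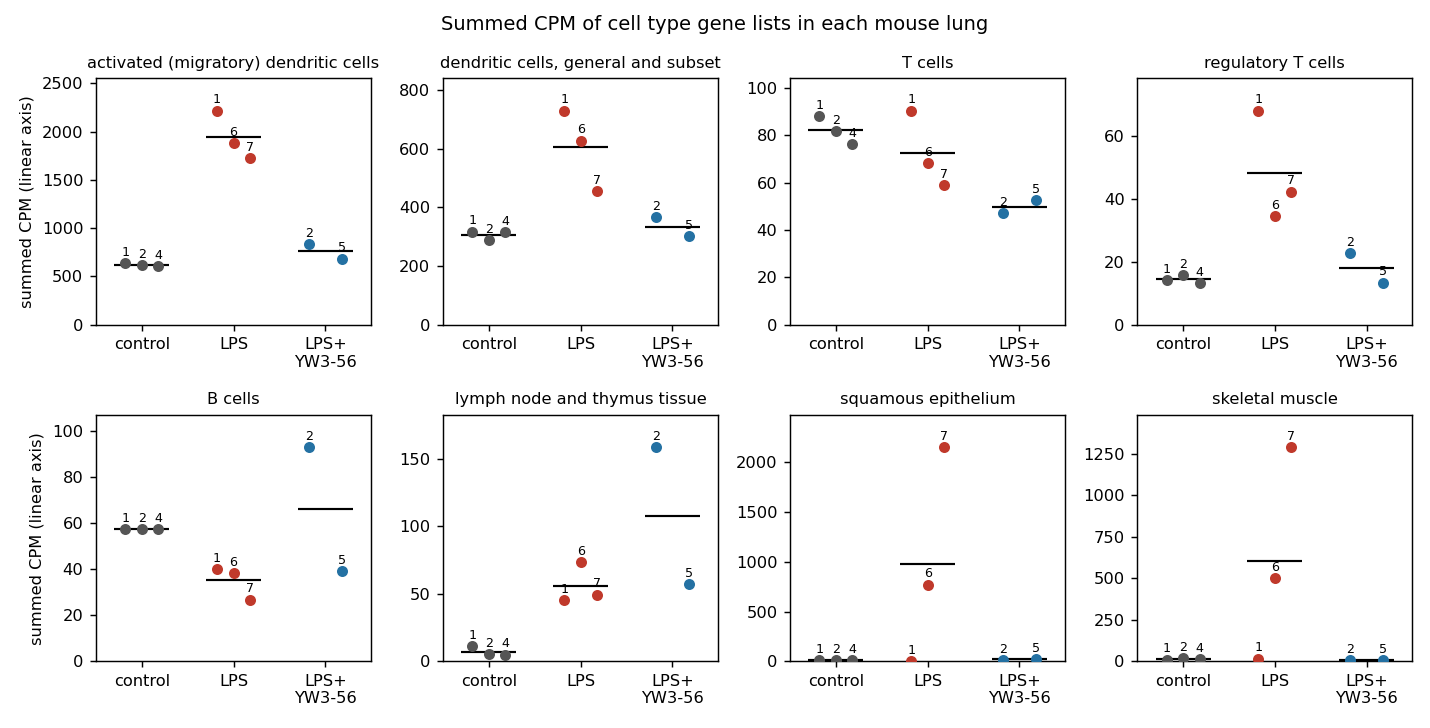
Summed CPM of 8 gene lists on a linear axis from 0, with a numbered point for every mouse and a line at the group mean. The T cell sum lies between 47.2 and 90.5 CPM in all 8 mice, while the squamous sum reaches 2149 CPM in LPS mouse 7.

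Genes outside the members and partners are named by abundance or size of change within their list; any others, named as defining markers or because few of a list were called, were chosen after the values were seen. Like Ccr8 and Ccr6, some listed genes reached the cutoff of the filter in fewer than 2 libraries outside 1 group and so entered the test through that group. By a rule also chosen after the values were seen, they are left out of the counts and medians of each list with all 8 mice. Without Themis, which entered through control, of 19 T cell genes 0 rose and 4 fell in LPS against control (Cd2, Cd4, Cd3g and Il7r), with a median log2 fold change of 0.08 beside -0.01 for all genes. Cd2, an adhesion molecule, averaged 9.23 CPM in control and 2.63 CPM in LPS lungs, and its log2 fold change was -1.81. In LPS+YW3-56 against LPS again 0 rose and 4 fell (Cd6, Trac, Cd28 and Cd3d; median -0.71 beside 0.06), and against control 0 rose and 2 fell (Cd6 and Tcf7; median -0.85 beside 0.0042). The T cell list depended on LPS mice 6 and 7: without them Cd247, Cd6, Trac and Zap70 were higher and Cd2 and Il7r lower in LPS than in control, Il7r was higher and 9 genes were lower in LPS+YW3-56 than in LPS, and Cd3e, Cd6, Bcl11b and Tcf7 were lower in LPS+YW3-56 than in control.

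Of 7 regulatory T cell genes Ctla4 entered through LPS. Of the other 6, Icos, Il2ra and Tnfrsf4 rose and Tnfrsf18 fell in LPS against control (median 1.02), while Icos and Tnfrsf4 fell and Tnfrsf18 rose in LPS+YW3-56 against LPS (median -0.74). Ctla4, which encodes an inhibitory receptor of activated and regulatory T cells and was also called in both, stood at 0.294, 0.422 and 0.322 CPM in control, 31.7, 11.95 and 15.9 CPM in LPS, and 6.31 and 0.220 CPM in LPS+YW3-56 mice. LPS+YW3-56 mouse 2 was above mouse 5 here, as it was for Ccl20 and Ccr7. Foxp3, the defining factor of regulatory T cells, stayed between 0.375 and 1.06 CPM in all 8 mice and was called in 0 comparisons. Of the 6 genes 0 were called in LPS+YW3-56 against control (median 0.05). Tnfrsf18 was called in neither comparison without LPS mice 6 and 7, and the other calls stayed.

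Of 10 genes of type 2 and type 17 lymphocytes 8 were tested, of which Il17a, Il17f and Il23r entered through LPS. Of the other 5, Il1rl1 rose and Gata3 fell in LPS against control (median -0.64), 0 were called in LPS+YW3-56 against LPS (median -0.93) and Gata3 alone fell against control (median -0.52). Il17a, Il17f and Il23r were called higher in LPS than in control and than in LPS+YW3-56, which the filter favoured. Il17a and Il17f, cytokine genes of CCR6-bearing T cells, had 426, 36 and 41 and 492, 62 and 101 counts in LPS mice 1, 6 and 7, so that mouse 1 held most of them. In all, the genes had 1 and 2 counts in the control group and 2 and 1 in the LPS+YW3-56 group. By pooled counts LPS lay 613-fold (95% counting interval 110 to 24266) above control and 216-fold (59.6 to 1792) above LPS+YW3-56 for Il17a, and 399-fold (110 to 3303) and 564-fold (101 to 22292) for Il17f. These intervals leave out the spread between mice, which was wide here. With mice 6 and 7 of the LPS group left out, 9 genes were tested, and Il1rl1 was also lower in LPS+YW3-56 than in LPS. B cells also carry CCR6 and CCR7: of 9 genes 0 rose and 5 fell in LPS against control (Ms4a1, Cd79a, Fcmr, Blk and Cr2; median -1.68), the same 5 rose in LPS+YW3-56 against LPS (median 1.37) and 0 were called against control (median 0.29). Their sum was 57.3, 57.4 and 57.3 CPM in control, 40.1, 38.3 and 26.7 CPM in LPS, and 92.8 and 39.0 CPM in LPS+YW3-56 mice. Leaving out LPS mice 6 and 7 ended the calls of Cd79a, and that of Blk in LPS+YW3-56 against LPS.

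Genes of dendritic cells as a type and of their activated, migratory state were listed apart. Of 14 general and subset genes Siglech entered through control. Of the other 13, 3 rose (Batf3, Irf8 and Bst2) and 7 fell in LPS against control, with a median log2 fold change of -1.36 beside -0.01 for all genes. The summed level of all 14 was 317, 288 and 316 CPM in control, 730, 628 and 456 CPM in LPS, and 366 and 301 CPM in LPS+YW3-56 mice, with the interferon-induced Bst2 the most abundant gene. Clec9a, which marks conventional type 1 dendritic cells, averaged 60.9 CPM in control, 0.612 in LPS and 27.7 in LPS+YW3-56 lungs, with log2 fold changes of -6.62 in LPS against control and 5.48 in LPS+YW3-56 against LPS. Zbtb46, listed here for conventional dendritic cells, stood at 49.7, 48.4 and 46.1 CPM in control, 16.97, 12.1 and 13.5 CPM in LPS, and 43.8 and 39.0 CPM in LPS+YW3-56 mice. Irf8 and Batf3, factors of the type 1 cells that Clec9a marks, went the other way: Irf8 averaged 37.8, 171 and 49.3 CPM in control, LPS and LPS+YW3-56 lungs, with log2 fold changes of 2.17 in LPS against control and -1.79 in LPS+YW3-56 against LPS, and Batf3 had 2.497 and -2.04. Mgl2, a lectin of type 2 dendritic cells and macrophages, averaged 16.2 CPM in control, 1.47 in LPS and 1.60 in LPS+YW3-56 lungs. Cd209a, also of type 2 dendritic cells and monocyte-derived cells, fell from 517 counts in control to 48 in LPS and 2 in LPS+YW3-56 lungs, which put control 182-fold above LPS+YW3-56 (95% counting interval 50.3 to 1511) and LPS 20.6-fold above it (5.41 to 175). Siglech, of plasmacytoid dendritic cells, had 33, 16 and 1 counts in these groups, which put control 23.3-fold (95% counting interval 3.90 to 947) and LPS 13.8-fold (2.14 to 577) above LPS+YW3-56. In LPS+YW3-56 against LPS 3 rose (Clec9a, Clec10a and Zbtb46) and 4 fell (Cd209a, Batf3, Irf8 and Bst2), with a median of 0.12 beside 0.06. Flt3 and Xcr1 were not called there, with log2 fold changes of 0.93 and -2.30. Like Clec9a and Zbtb46, 4 of 7 endothelial genes fell in LPS against control and rose in LPS+YW3-56 against LPS. Which cells made Clec9a and Zbtb46 was not tested. LPS+YW3-56 against control had Clec10a higher and 4 lower (Cd209a, Xcr1, Mgl2 and Clec9a), with a median of -0.40 beside 0.0042. Flt3 and Xcr1 were no longer lower in LPS than in control without LPS mice 6 and 7, and Itgax and Xcr1 were then also lower in LPS+YW3-56 than in LPS.

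Of 16 genes of the activated, migratory state 14 were tested, and 10 rose and 1 (Traf1) fell in LPS against control, with a median of 1.53. Cd274 (PD-L1), with the largest mean over all 8 mice and not confined to dendritic cells, averaged 18.1 CPM in control, 596 in LPS and 35.3 in LPS+YW3-56 lungs, with log2 fold changes of 5.04 and -4.08. Fscn1, whose product bundles actin in migrating dendritic cells, stood at 14.0, 8.40 and 6.85 CPM in control, 66.8, 51.0 and 50.01 CPM in LPS, and 29.9 and 14.9 CPM in LPS+YW3-56 mice. All LPS mice exceeded all others, and LPS+YW3-56 mouse 2 exceeded mouse 5. Between LPS+YW3-56 and LPS 1 gene (Traf1) rose and 6 fell (median -0.95). Against control 6 rose and 1 (Cd83) fell (median 0.81), with Samsn1 the largest at 2.59. Samsn1 and Marcksl1 stayed high in LPS+YW3-56 lungs, at 24.5 and 65.0 CPM beside 31.4 and 71.5 in LPS, which set them apart from the 6 members. With LPS mouse 1 as the only LPS library all 16 were tested, with 11 higher and 2 lower in LPS against control, 0 higher and 8 lower in LPS+YW3-56 against LPS, and 4 higher and 1 lower in LPS+YW3-56 against control.

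CCR7 ligands act at lymphatic vessels. Of 6 lymphatic endothelial genes Lyve1 alone rose in LPS against control (median 0.26), from an average of 272 CPM to 1782 CPM. In LPS+YW3-56 lungs Lyve1 averaged 381 CPM. Prox1 averaged 2.41 CPM in control and 3.99 CPM in LPS lungs and was not called between them. Which cells made the transcripts of this list was not tested. Lyve1, Prox1 and Pdpn fell in LPS+YW3-56 against LPS (median -0.68), and 0 were called against control (median -0.39). Pdpn was called higher in LPS as well without LPS mice 6 and 7. Of 8 lymph node and thymus genes 3 were tested, of which Madcam1 entered through LPS, and the others, Cxcl13 and Fcer2a, rose in LPS against control (median 2.61). Madcam1, an adhesion molecule of lymphoid tissue vessels, had 1 count in control, 48 in LPS and 7 in LPS+YW3-56 lungs, so that LPS lay 58.5-fold above control (95% counting interval 10.01 to 2359). Cxcl13, a B cell chemokine, behaved unlike the members and stood at 9.15, 2.35 and 2.80 CPM in control, 34.6, 59.7 and 41.7 CPM in LPS, and 156 and 53.7 CPM in LPS+YW3-56 mice. Its log2 fold change was 4.46 in LPS+YW3-56 against control, where it alone was called (median 2.36). Fcer2a fell in LPS+YW3-56 against LPS (median -0.25), as it did without LPS mice 6 and 7, and Madcam1 was called lower there only with them. How much lymphoid tissue each lung piece held was not tested.

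Other CC chemokine ligands were divided between genes that fell again in LPS+YW3-56 lungs and genes that did not. Of 14 listed 13 were tested, and 10 rose and 3 fell in LPS against control (median 2.33 beside -0.01). In LPS+YW3-56 against LPS 0 rose and 5 fell, namely Ccl3, Ccl4, Ccl5, Ccl11 and Ccl28 (median 0.24 beside 0.06). Ccl5, which attracts T cells and monocytes, averaged 11.4, 228 and 25.7 CPM in control, LPS and LPS+YW3-56 lungs. Ccl2, a ligand of CCR2, stood at 4.35, 6.80 and 4.18 CPM in control, 145, 50.4 and 49.2 CPM in LPS, and 57.8 and 35.9 CPM in LPS+YW3-56 mice, so the treated groups overlapped and LPS mouse 1 stood apart. Ccl12, another, averaged 0.883, 11.2 and 14.1 CPM in the 3 groups; neither was called in LPS+YW3-56 against LPS, though Ccl2 was called lower there without LPS mice 6 and 7, and Ccl28 was then not called. Against control 6 were higher in LPS+YW3-56 and 0 lower (median 0.33 beside 0.0042). The 3 that fell in LPS (Ccl24, Ccl25 and Ccl27a) and Ccl28 were not called in LPS against control with mice 6 and 7 left out.

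Among receptors outside the set, Ccrl2, an atypical receptor that binds chemerin, averaged 44.0, 338 and 36.7 CPM in control, LPS and LPS+YW3-56 lungs. It rose in LPS against control, with a log2 fold change of 2.94, and fell in LPS+YW3-56 against LPS, with -3.20. Ccr2, of inflammatory monocytes, did the reverse, at 18.7, 2.04 and 27.8 CPM, with log2 fold changes of -3.19 and 3.77, both called. Ccr1, a receptor of neutrophils and monocytes, rose in LPS and in LPS+YW3-56 against control, with log2 fold changes of 2.11 and 2.57.

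Lists of the resident and arriving cells gave the setting. Of 8 alveolar macrophage genes 0 rose and 2 fell (Siglecf and Ear2) in LPS against control (median -0.80), 3 rose in LPS+YW3-56 against LPS (Siglecf, Marco and Ear2; median 0.93) and Marco alone rose against control (median 0.05). Of 7 neutrophil genes 6 rose in LPS against control (median 2.82) and 6 in LPS+YW3-56 against control (median 2.99), while in LPS+YW3-56 against LPS 3 rose (Retnlg, Csf3r and Cxcr2) and Ly6g fell (median 0.13). The neutrophil sum was 226, 125 and 130 CPM in control, 2164, 3007 and 1893 CPM in LPS, and 1732 and 2410 CPM in LPS+YW3-56 mice, so the treated groups overlapped. Of 11 epithelial genes 3 rose in LPS (Epcam, Cdh1 and Muc5b; median 0.72), 6 fell in LPS+YW3-56 against LPS (median -1.02) and Scgb3a2 fell against control (median -0.49). Of 7 endothelial genes Pecam1, Kdr, Tek and Ramp2 fell in LPS (median -1.52) and rose in LPS+YW3-56 against LPS (median 1.70), and 0 were called against control (median -0.11). Of the squamous genes 7 and of the muscle genes 4 entered through LPS. Among the others 3 of 6 squamous and 5 of 5 muscle genes were called higher in LPS against control, and 3 and 5 lower in LPS+YW3-56 against LPS. Neither list had a call in LPS+YW3-56 against control. Without LPS mice 6 and 7, 6 genes of each were tested, and 0 of either list rose in LPS, while Krt5, Krt14 and Sprr1a fell. In LPS+YW3-56 against LPS that setting had Krt6a, Krt14, Sprr1a and Mylpf higher and Ckm and Tnnt3 lower, and against control Krt6a higher and Krt5, Sprr1a and Tnnt3 lower. It also had Cidec lower and Scgb3a2 higher in LPS against control, and in LPS+YW3-56 against LPS it had Ager lower, and Foxj1, Siglecf and all 7 neutrophil genes without a call.

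For each tested member the genes with the closest course over the 8 mice were found by the root mean square difference of centred log2 CPM, where 0 would be an identical course. Ccl22 was closest to Tat at 0.16, Retnla at 0.25 and Elane at 0.29, among 15579 genes with a mean of at least 1 CPM. Ccr7 was closest to Inhbb at 0.21, Rgs1 at 0.22 and Tmem252 at 0.25. Ccl17 had Lum at 0.36, Sh2d4b at 0.39 and Bpifb1 at 0.43, and Ccl19 had D7Bwg0826e at 0.48, Hpx at 0.52 and Gm4841 at 0.55. Ccl20, with its wide range, had no gene as close: Mab21l3 stood at 0.84, Gbp11 at 0.84 and Csf3 at 0.88. The low receptors came closest to Gm32618 at 0.21, Gdf11 at 0.33 and Edil3 at 0.33 for Ccr6, and to Gm10389 at 0.25, Eqtn at 0.31 and 1700001J03Rik at 0.34 for Ccr8. Over the 6 mice left without LPS mice 6 and 7 Tat was still closest to Ccl22, at 0.11, while the gene named first for each other member ranked 2 for Ccr7, 3 for Ccl19, Ccl20 and Ccr8, 4 for Ccl17 and 19 for Ccr6.

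Promoter windows of 300 bases were read for the members from a RefSeq table on build GRCm38.p6, which is not the build of the gene positions above. It held 7 of the 8 members, with Ccr7 not in the table. A kappaB motif with the letters GGGNNTTTCC was found on either strand in 535 of 32851 windows (1.63%), and an AP-1 motif with the letters TGANTCA in 2565 (7.81%). Among the members the kappaB letters were in Ccl20 only, as GGAAAACCCC on the opposite strand from base -80 to -71, and the AP-1 letters in Ccr4 only, as TGAGTCA from base -143 to -137. The windows of Ccl17, Ccl19, Ccl22, Ccr6 and Ccr8 held neither, which says only that these letters were not there. The 250 bases before the start are shown for Ccl20 (chr1:83116516-83116765, plus strand), the member with the largest fold change, and for the neighbours Ccl22 (chr8:94745434-94745683, plus strand) and Ccl17 (chr8:94810203-94810452, plus strand), which rose and fell together. Capitals mark the kappaB match.
Ccl20: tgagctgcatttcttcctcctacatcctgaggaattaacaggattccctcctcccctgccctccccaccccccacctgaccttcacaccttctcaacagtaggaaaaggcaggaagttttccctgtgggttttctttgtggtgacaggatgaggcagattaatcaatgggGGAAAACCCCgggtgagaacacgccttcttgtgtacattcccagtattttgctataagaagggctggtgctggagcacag
Ccl22: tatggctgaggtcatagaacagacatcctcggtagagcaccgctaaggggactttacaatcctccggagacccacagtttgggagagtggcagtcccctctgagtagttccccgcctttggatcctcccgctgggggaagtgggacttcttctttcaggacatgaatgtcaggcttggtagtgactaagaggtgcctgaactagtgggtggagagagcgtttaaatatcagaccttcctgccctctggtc
Ccl17: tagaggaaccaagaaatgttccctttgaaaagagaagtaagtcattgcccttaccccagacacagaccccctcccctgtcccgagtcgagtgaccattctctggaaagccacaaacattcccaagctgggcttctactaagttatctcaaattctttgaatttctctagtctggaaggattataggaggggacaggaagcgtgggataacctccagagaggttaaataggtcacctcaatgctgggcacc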

How the data were processed

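RNA of 8 mouse lungs was analysed from the table of read counts per gene that the authors deposited. According to the submitters' processing notes, the authors checked reads with FastQC 0.11.9, trimmed them with Trim Galore, aligned them to GRCm39 with HISAT2 2.2.1 and counted them with featureCounts 2.0.1; annotation release, strand setting and the treatment of multimapping reads are not given in the sources used here. Of 55416 gene identifiers, 54749 matched GENCODE M39, which gave names, positions and exon lengths; the other 667 hold 0.0533% of counts. Counts were fitted in R 4.3.3 with edgeR 4.0.16 (filterByExpr by group, TMM scaling, quasi-likelihood test with 1 group factor over 8 mice and 5 residual degrees of freedom). A gene was called with a Benjamini-Hochberg adjusted p under 0.05 and a fold over 2. The code was tested on simulated data.

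Ratios within a library used a prior count of 0.5 and two-sided exact permutation tests over mice. Levels per kilobase used exon unions, and courses were compared as log2 CPM with a prior count of 2. Folds from pooled counts against a group with 1 to 3 counts have counting intervals, which cover counting error only. Promoter sequences came from RefSeq, build GRCm38.p6.

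Named genes were all members and partners; of every other list the 2 most abundant and, in each comparison, the 2 called with the largest change were eligible, along with the 3 genes most like each member. Members and lists were chosen with earlier results of these data known. The published study lists Ccl17, Ccl19, Ccl20, Ccl22, Ccr7 and Ccr8 among genes picked from these same libraries, so their direction here is not independent evidence. Alternatives were scaling by library size or by RLE, DESeq2 1.42.0, other filters, only the 2 groups compared, other call rules, leaving out each mouse, and leaving out LPS mice 6 and 7. No library was left out of the results unless stated.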

Additional observations from a re-analysis of the deposited data

How the results depend on the processing

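Over all alternatives, 391 of 409 member fold changes kept sign and call, 8 lost a call, 7 gained one and 3 changed sign. Of 150 ratio values 148 kept their sign. Ccl17, Ccl19, Ccl20, Ccl22 and Ccr7 were called higher in LPS against control, and lower in LPS+YW3-56 against LPS, under every setting. Ccr8 had these calls too, but it entered the test through the LPS group and is not counted here.

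With an adjusted p under 0.05 and no fold criterion, 12346, 10960 and 2997 genes were called in LPS against control, LPS+YW3-56 against LPS and LPS+YW3-56 against control, beside 7279, 6264 and 1327. In LPS+YW3-56 against control Ccl17 and Ccl22 were then called lower, and Ccl17 and Ccr6 were with an unadjusted p and a fold over 2. Ccr6 entered the test through control, where it was high, so its call is not used as support. The share of all tested genes called lower under these rules is not given here, so these calls are not read as a result about the members. The filter on a mean of 10 counts removed Ccr4, so it has no value there. Without division by length 3, 3 and 4 pairs of members stood in another order in control, LPS and LPS+YW3-56.

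Library size in place of TMM shifted the median log2 fold change of all genes by -0.28, 0.32 and 0.04 in the 3 comparisons. The share of calls that were higher went from 45.6% to 32.5%, from 58.5% to 74.7% and from 73.4% to 76.3%. Which scaling fits these lungs was not tested.

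Leaving out each mouse in turn gave 1 to 2 members lower in LPS against control. Ccr4, where it was among them, had entered the test through control, as Ccr6 had with all 8 mice. For LPS+YW3-56 against control it gave 752 to 1831 genes called, 0 to 2 members higher and 0 to 1 lower, and a Ccr7 log2 fold change of -0.58 to 1.44. The unfiltered Ccr4 log2 fold change in LPS+YW3-56 against LPS ran from -0.83 to 0.55, and was 3.08 without LPS mice 6 and 7. Relative to T cell genes, Ccr4 in LPS+YW3-56 against LPS ran from -0.37 to 1.06 (2.04 without LPS mice 6 and 7), and Ccr8 in LPS+YW3-56 against control from -0.17 to 0.77. No paired analysis was possible because the groups share at most 1 mouse number.

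With 2 or 3 mice a group, labels that give no batch and 1 time point, the cause of any difference was not tested.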
